A study of Mus musculus with 5 samples.

Results

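The comparison set a library labelled 5xFAD with astrocyte specific MAGL-KO against a library labelled 5xFAD, with 1 library on each side. Members were all nuclei of these 2 libraries with at least 500 detected genes, at most 5% mitochondrial RNA and no call as a likely doublet. They were 5856 nuclei of the astrocyte MAGL-KO library and 4962 of the 5xFAD library, 10818 of the 26782 nuclei in the 5 libraries of the series. Both libraries came from mouse hippocampus and carry the 5xFAD transgenes, which express mutant human amyloid precursor protein and presenilin in neurons. The groups compared therefore share the transgenes and differ, by their labels, in the astrocyte deletion of MAGL. The other 3 libraries, labelled wild type, 5xFAD neuron specific MAGL-KO and 5xFAD global MAGL-KO, are quoted only as levels beside these values. The sources used here give no ages, Cre driver, deleted exons or numbers of animals, and all 5 libraries carry the same batch label, v3.

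MAGL, monoacylglycerol lipase, is encoded by Mgll and hydrolyses 2-arachidonoylglycerol (2-AG), the most abundant endocannabinoid of the brain. The reaction ends 2-AG signalling at the cannabinoid receptor CB1 and releases arachidonic acid, the precursor of prostaglandins. The enzyme is found in presynaptic terminals and in astrocytes, where neuronal 2-AG can also be taken up and broken down. 5xFAD mice build up amyloid plaques, around which microglia and astrocytes change their expression.

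RNA and open chromatin were read in the same nuclei. RNA was counted in UMIs (single RNA molecules) and is given in CPM, a gene's share of all UMIs of a cell class on the usual CPM scale, and accessibility in CPM of transposase cut sites in peaks. Brackets hold exact 95% Poisson intervals, which cover counting error only. Ratios are log2 of astrocyte MAGL-KO over 5xFAD after adding 5 CPM, so those of weakly expressed genes are understated. A gene is called higher or lower when it passed 1.5-fold on that scale with at least 100 UMIs over both libraries. With 1 library per group no test was possible, and a call states a difference between 2 libraries, not an effect of the genotype. The 5xFAD library held 111844285 UMIs and the astrocyte MAGL-KO library 107412969, with medians of 16756 and 13729 per nucleus. The median mitochondrial share was 0.845% and 1.02%, and 44 cell barcodes occurred among the nuclei of both libraries. Nuclei with Xist but no Y-linked UMIs numbered 1758 in 5xFAD and 2901 in the astrocyte MAGL-KO library. Nuclei with Y-linked UMIs but no Xist numbered 2501 and 2077. Nuclei with both numbered 565 and 681 and were kept. Each library thus held RNA of both sexes, and ratios within these Xist nuclei and Y nuclei are given as a split inside the libraries. Sex and animal cannot be told apart in this split.

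The label was first set against Mgll itself. In astrocyte nuclei Mgll was at 356 CPM in 5xFAD (82 UMIs) and at 451 CPM [361, 556] in the astrocyte MAGL-KO library. The ratio was 0.33, with a counting interval of the plain ratio from -0.11 to 0.79, so no lower level was seen. Dentate granule neurons went from 83.2 to 114 CPM (0.44) and oligodendrocytes from 33.9 to 61.5 CPM (0.77). The oligodendrocyte value rests on 35 and 47 UMIs, under the minimum for a call, and was -0.18 within Y nuclei. Astrocyte Mgll was at 492 CPM in wild type, 401 CPM in the neuron knockout and 430 CPM in the global knockout, so the 5xFAD library had the lowest value of the 5. UMIs were counted per gene as a whole, so RNA still transcribed from a deleted allele would be included. For this reason the group is called by its label throughout. The gene lies at chr6:88724412-88828360 on the plus strand of GRCm38. The 250 bases before its start are shown because the open region there, chr6:88724141-88724992, which also overlaps an exon of the gene model Gm26588, had the highest level of the locus in both libraries. The sequence is RefSeq's, build GRCm38.p6, chr6:88724162-88724411.
Mgll: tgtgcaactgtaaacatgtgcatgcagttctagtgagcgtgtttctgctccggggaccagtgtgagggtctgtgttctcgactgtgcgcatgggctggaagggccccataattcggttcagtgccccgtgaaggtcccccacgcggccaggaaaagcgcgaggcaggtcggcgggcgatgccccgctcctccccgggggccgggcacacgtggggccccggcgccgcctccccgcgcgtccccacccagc
That region held 30.5 CPM of cut sites [29.3, 31.8] in 5xFAD and 32.6 [31.4, 33.9] in the astrocyte MAGL-KO library over all nuclei. In astrocyte nuclei the same region held 28 and 21 cut sites, or 50.4 CPM [33.5, 72.8] and 42.9 CPM [26.5, 65.5], which overlap. Across Mgll and 10000 bases on each side, 18 regions were listed, 16 of them in both libraries. None of the 16 passed 1.5-fold, their log2 ratios ran from -0.22 to 0.50 with a median of -0.08, and their summed level was 163 CPM in 5xFAD and 160 CPM in the astrocyte MAGL-KO library. The intronic region chr6:88743533-88744473 was listed in 5xFAD (229 cut sites, 22 of them in astrocyte nuclei) and in wild type (230, with 8) but in none of the 3 libraries labelled MAGL-KO. The intronic region chr6:88787325-88787935 was listed in the astrocyte MAGL-KO library alone of the 5 (343 cut sites, 3 in astrocytes). No ratio can be given for either. The plot of Mgll by cell class shows the 5 libraries side by side.

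**Figure D1:**
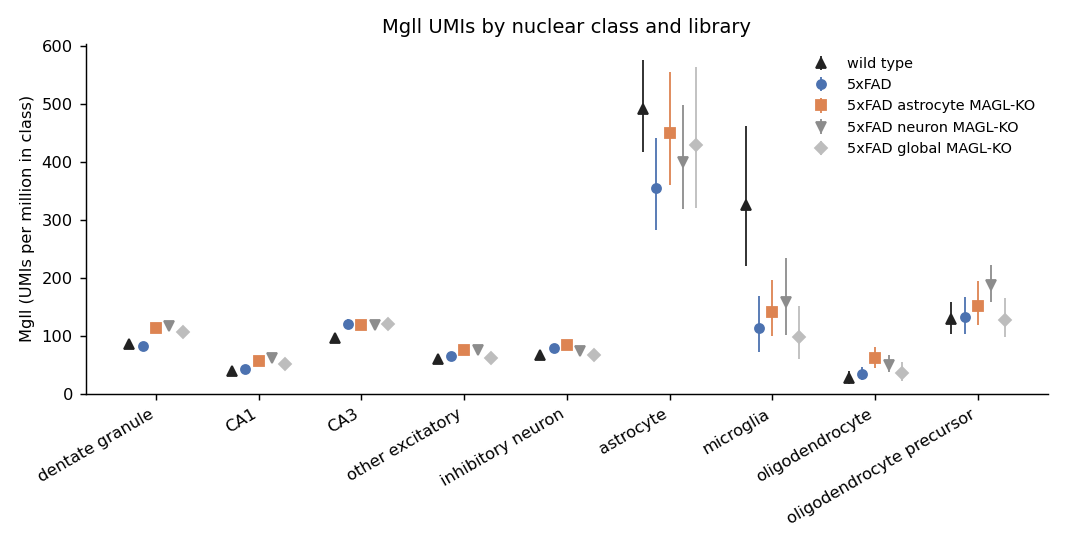
Mgll RNA in CPM of the UMIs of a cell class (y axis) for 9 classes of nuclei (x axis) in the 5 libraries, with exact 95% Poisson intervals as bars. The astrocyte class is the highest in every library, and the library labelled astrocyte MAGL-KO (451 CPM) does not lie below 5xFAD (356 CPM) there.

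Few calls fell among the other genes of 2-AG and anandamide turnover. Of 15 listed genes, 12 had 100 UMIs in dentate granule neurons and 0 were called, against 3.38% of all 11933 genes there. At that share a list of 12 would often hold no call. Dagla, which makes 2-AG, was at 110 CPM in 5xFAD and 119 CPM in the astrocyte MAGL-KO library. Abhd6 and Abhd12, further 2-AG hydrolases, went from 98.2 to 97.1 CPM and from 117 to 115 CPM. Faah, the anandamide hydrolase, was at 104 and 116 CPM. Summed over the list the level was 2513 and 2346 CPM. None of the listed genes with 100 UMIs was called in CA1, CA3, inhibitory, other excitatory, astrocyte, microglia or oligodendrocyte nuclei, although microglia had only 1 and astrocytes 2 such genes. In astrocytes 8 of the 9 genes with at least 10 UMIs lay above 0, with a median of 0.33 against -0.10 for all genes. That median was 0.12 in Xist and 0.31 in Y nuclei. In oligodendrocyte precursors Cnrip1, which binds CB1, was the 1 of 4 called, at 82.4 and 145 CPM, where 5.45% of all genes were called (3.01% higher and 2.45% lower). The shares of all genes called in the classes with no call were 4.39% in CA1, 6.16% in CA3, 3.4% in other excitatory neurons, 5.03% in inhibitory neurons, 9.04% in microglia, 12.2% in astrocytes and 7.07% in oligodendrocytes. For the eicosanoid enzymes and receptors, 3 of 11 genes with 100 UMIs were higher in other excitatory neurons, where 3% of all genes were. They were Hpgds (5.99 and 13.7 CPM) and Ptgds (7.01 and 13.6 CPM), both prostaglandin D synthases, and the prostaglandin E receptor gene Ptger4 (4.08 and 8.7 CPM). The list median there was 0.10, against 0.14 for all genes. In each other neuronal class 1 or 2 of 5 to 9 were higher, where 3.09% to 5.71% of all genes were. Ptgds is a leading gene of oligodendrocyte and vascular clusters. In other excitatory nuclei vascular markers summed to 10.3 and 15.4 CPM and oligodendrocyte markers to 93.5 and 98.7 CPM. Their part was not tested.

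Class shares were close. Dentate granule nuclei made up 27.5% [26.2, 28.7] of the 5xFAD nuclei and 29.1% [27.9, 30.3] of the astrocyte MAGL-KO nuclei (Clopper-Pearson intervals). CA1 gave 570 and 617 nuclei, CA3 215 and 265, other excitatory neurons 1135 and 1433 and inhibitory neurons 441 and 479. Glia were few, with 45 and 48 astrocytes, 81 and 121 microglia and 306 and 308 oligodendrocytes, so glial values rest on far fewer UMIs than neuronal ones. Class markers were present in the classes named for them: 11 astrocyte markers summed to 6888 and 6500 CPM in astrocyte nuclei, 11 microglia markers to 13828 and 14386 CPM in microglia and 12 oligodendrocyte markers to 25504 and 28607 CPM in oligodendrocytes, with 0 markers at 0. Clusters that could not be named held 695 and 764 nuclei and are not described as classes.

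Calls in neurons ran mostly upward. In dentate granule neurons 369 of 11933 genes (3.09%) were higher and 34 (0.285%) lower in the astrocyte MAGL-KO library. CA1 had 429 higher and 38 lower (4.03% and 0.357%), CA3 515 and 41 (5.71% and 0.454%), other excitatory neurons 393 and 52 (3% and 0.397%), and inhibitory neurons 488 and 82 (4.3% and 0.723%). In either direction these calls were 4.39% of the genes in CA1, 6.16% in CA3, 3.4% in other excitatory and 5.03% in inhibitory neurons. Over all nuclei together 285 genes were higher (1.69%) and 30 lower (0.178%), 1.87% in all. The median ratio of all genes was 0.12 to 0.14 in these 5 classes, and with median size factors in place of total UMIs it was 0.01 in dentate granule and 0.00 in CA1 nuclei. That scaling moved the split of calls. The share of higher genes among those called went from 91.6% to 63.8% in dentate granule, from 91.9% to 71.9% in CA1, from 92.6% to 71.4% in CA3, from 88.3% to 55.2% in other excitatory and from 85.6% to 64.4% in inhibitory neurons. Neuronal directions are therefore best read relative to the median of all genes. Ratios also went with gene length: dentate granule genes under 10 kb had a median of 0.24 and genes of 200 kb or more one of -0.05, and in oligodendrocytes the same bins had 0.29 and -0.18. The part of gene length in the results below was not tested.

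Genes of the ribosome and of energy supply had medians above that of all genes in every neuronal class, and in the glial classes where they were read. The 76 genes of the cytosolic ribosome had medians of 0.49 in dentate granule, 0.47 in CA1, 0.48 in CA3, 0.49 in other excitatory and 0.55 in inhibitory neurons, with 76 of 76 above 0 in dentate granule and inhibitory neurons. With 100 UMIs and past 1.5-fold were 14 of 76 in dentate granule and 30 of 76 in inhibitory neurons, where 3.09% and 4.3% of all genes were higher. Of 54 oxidative phosphorylation genes, which encode the respiratory chain and ATP synthase, 52 lay above 0 in dentate granule neurons with a median of 0.37, but 2 of 54 were called higher there, near the 3.09% of all genes. In CA1 9 of 53 were higher, in CA3 9 of 46, in other excitatory neurons 7 of 54 and in inhibitory neurons 16 of 54. Of all genes 4.03%, 5.71%, 3% and 4.3% were higher in these 4 classes, in that order. In glia the oxidative phosphorylation medians were 0.38 in oligodendrocytes, 0.35 in astrocytes, 0.28 in microglia and 0.26 in oligodendrocyte precursors, against -0.10 to -0.01 for all genes, over the members with at least 10 UMIs. The astrocyte value was -0.06 in Xist and 0.29 in Y nuclei. In astrocytes and microglia 0 of these genes had 100 UMIs, so none could be called there. In oligodendrocytes 0 of 5 with 100 UMIs were called higher, where 3.4% of all genes were. In oligodendrocyte precursors 1 of 1 was, where 3.01% of all genes were. Glycolysis genes had medians of 0.30 to 0.44 in neurons. Among glia the ribosomal median was 0.57 in oligodendrocytes, the highest of the 9 classes, 0.47 in oligodendrocyte precursors, 0.22 in astrocytes and 0.10 in microglia (0.40 in Xist and -0.32 in Y nuclei). Size factors lowered the neuronal medians of the ribosome to between 0.35 and 0.43, still above 0.

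By contrast, the genes of synaptic transmission sat at or below the median of all genes. Medians of glutamate receptors, postsynaptic scaffolds, neurexins with neuroligins and vesicle release, GABA receptors and voltage-gated ion channels ran from -0.07 to 0.12 over the 5 neuronal classes, and with size factors all were negative, from -0.22 to -0.03. In dentate granule neurons 0 of 20 glutamate receptor genes, 0 of 13 GABA receptor genes and 0 of 37 channel genes with 100 UMIs were called, where 3.38% of all genes were. The 1 of 21 scaffold genes called was Nrgn, the calmodulin-binding neurogranin, at 124 and 195 CPM, and the 1 of 31 genes of adhesion and release was the neurexin gene Nrxn3, at 1286 and 2527 CPM. Genes of amyloid production and clearance had medians of 0.08 to 0.17, or -0.07 to 0.02 with size factors. The plot of list medians sets the lists read in at least 5 classes beside the median of all genes in each class.

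**Figure D2:**
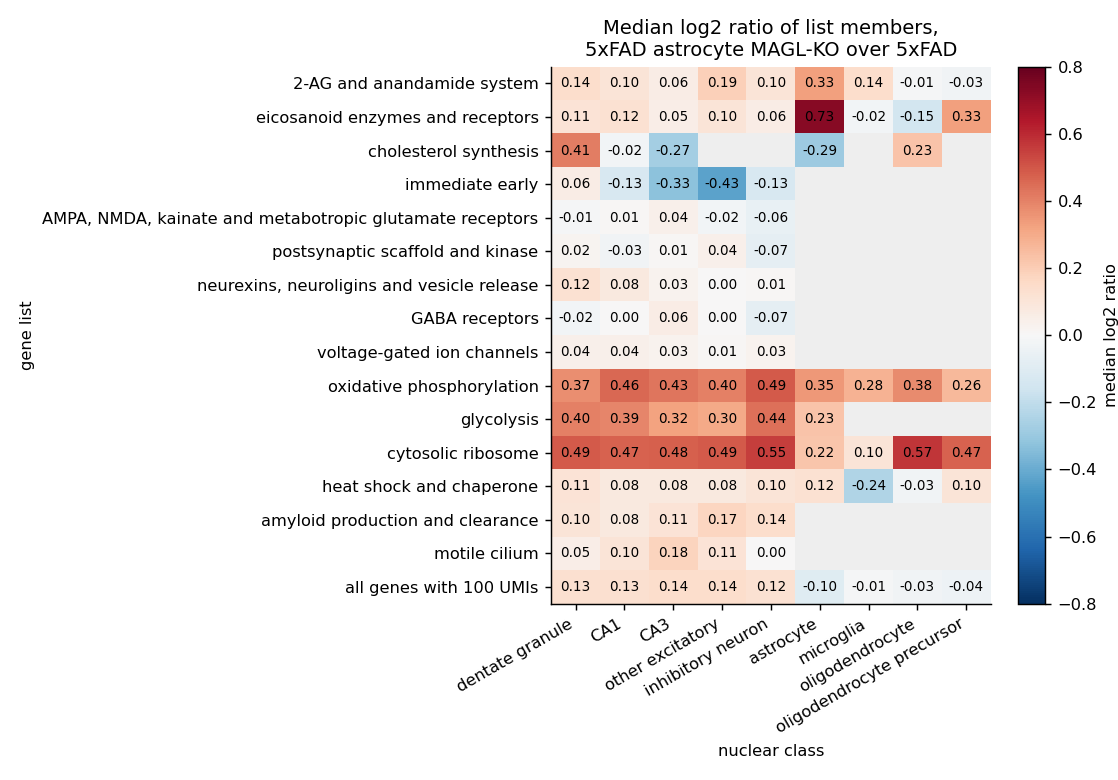
Median log2 ratio of astrocyte MAGL-KO over 5xFAD for the members with at least 10 UMIs of 15 gene lists (rows) in 9 classes of nuclei (columns), with all genes in the last row; grey cells were not computed. Ribosomal and oxidative phosphorylation genes lie above all genes in the 5 neuronal classes, immediate early genes below them in other excitatory neurons (-0.43) and CA3 (-0.33).

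Immediate early genes, which neurons transcribe within minutes of firing, had medians below 0 in other excitatory, CA1, CA3 and inhibitory neurons and of 0.06 in dentate granule neurons. The difference between classes was not tested. In other excitatory neurons 19 of 21 lay below 0, with a median of -0.43 against 0.14 for all genes, and 6 of 20 with 100 UMIs were lower while 0 were higher, against 0.397% of all genes lower. Their summed level was 1123 CPM in 5xFAD and 599 CPM in the astrocyte MAGL-KO library. The largest part was Homer1, whose short activity-induced form loosens the postsynaptic scaffold, at 715 CPM [704, 726] and 334 CPM [327, 341], a ratio of -1.09. The Homer1 ratio was -1.15 in Xist nuclei and -1.07 in Y nuclei. Nr4a3, an orphan nuclear receptor, was at 61.5 [58.4, 64.7] and 30.6 CPM [28.5, 32.7] (-0.90). Npas4, an activity-dependent transcription factor, was at 15.8 [14.3, 17.5] and 8.1 CPM [7.06, 9.25] (-0.67). Arc, which takes AMPA receptors off the synapse, went from 20.9 to 10.2 CPM, Egr1 from 18.4 to 9.7 and Egr3 from 19.7 to 9.55. In wild type Homer1 was at 678, Arc at 19.9, Egr1 at 20.1, Egr3 at 19.9 and Npas4 at 18.4 CPM, and Nr4a3 at 81.2 CPM. In the neuron and global knockout libraries Homer1 was at 365 and 478 CPM, Nr4a3 at 36 and 37 CPM and Egr1 at 9.16 and 10.6 CPM. Jun and Nptx2 lay above 0. Nptx2 was level, at 6.2 and 6.64 CPM, and Jun was at 4.93 CPM [4.07, 5.91] in 5xFAD and 9.22 CPM [8.1, 10.4] in the astrocyte MAGL-KO library. Markers of other classes were also present in other excitatory nuclei and are given beside this: the 9 dentate granule markers summed to 646 and 874 CPM, and the 10 markers of the class itself to 3284 and 3136 CPM. Their part in the result was not tested.

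Other excitatory neurons are 13 clusters, and the 2 libraries filled them unequally. Cluster n1 held 45 nuclei in 5xFAD and 187 in the astrocyte MAGL-KO library, n38 held 37 and 94, and n16, which had the highest immediate early level, held 208 and 138. The list was therefore also read within each cluster, a split chosen after the data were seen. Its median was negative in 8 of 13 clusters and ran from -0.76 in n11 to 0.28 in n10, where only 3 genes had 10 UMIs. Homer1 was below 0 in 12 of 13 clusters and past 1.5-fold lower in 7, with 1638 and 720 CPM in n16 (-1.18) and 1194 and 423 CPM in n12 (-1.49). Homer1 was level in n27, at 347 and 338 CPM, and higher in n42 (0.39), which held 18 and 17 nuclei. Nr4a3 was likewise below 0 in 12 clusters. In n40 (114 and 144 nuclei) the list median was 0.00 and the sum 545 and 492 CPM, so the lower values were not shared by all clusters.

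CA1 showed part of the same list. There 5 of 16 immediate early genes with 100 UMIs were lower and 0 higher, against 0.357% of all genes lower, and the summed level was 983 and 654 CPM. Homer1 was at 661 CPM [647, 675] and 405 CPM [394, 417], Nr4a3 at 65.2 and 37.5 CPM, Npas4 at 14.5 and 7.24 CPM, Nr4a2 at 35.9 and 21.3 CPM and Arc at 19.7 and 11 CPM. Each of these 5 ratios was negative in both sex splits. Homer1 was lower in both CA1 clusters, at 671 and 442 CPM in n5 and 639 and 350 CPM in n6. The Nr4a3 ratio was -0.37 in n5, short of the call, and -1.50 in n6. Junb and Nr4a1, in contrast, were level in CA1, at 19.3 CPM in both libraries and at 37.9 and 37.5 CPM. CA3 summed to 847 and 518 CPM, with Homer1 at 532 and 311 CPM, Nr4a2 at 27.5 and 16.2 CPM and Bdnf at 70.3 and 44.6 CPM called lower and Jun, at 4.61 and 10.5 CPM, called higher. In CA3 the median was -0.11 in Xist nuclei and -0.47 in Y nuclei, it was 0.19 after thinning to 1000 UMIs, and Nr4a2 was 0.26 in cluster n20, so the direction in CA3 depends on these choices. Inhibitory neurons had 4 of 14 lower, where 0.723% of all genes were, and summed to 478 and 342 CPM. Their median of -0.13 joined 0.15 in Xist nuclei with -0.33 in Y nuclei, and inhibitory Nr4a3 was 0.18 after thinning. In the same nuclei the 8 CA1 markers summed to 510 and 332 CPM, with 2 higher. The 10 inhibitory markers summed to 8011 and 9571 CPM, with 9 higher. The part of these markers was not tested. In dentate granule neurons the immediate early genes summed to 326 and 362 CPM with a median of 0.06. Bdnf and Nptx2 were the 2 of 12 called, both higher, where 3.09% of all genes were.

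**Figure D3:**
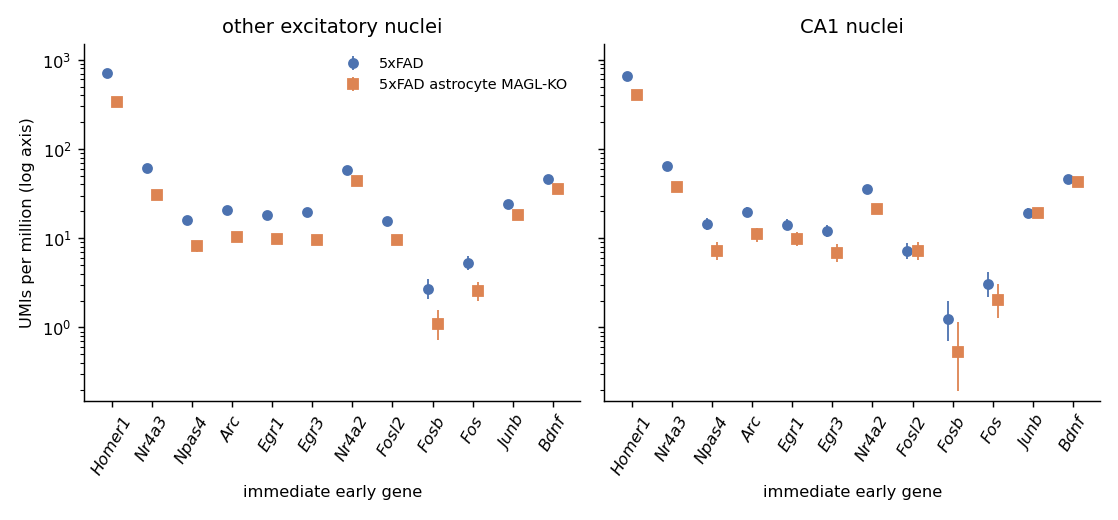
Level of 12 immediate early genes (x axis) in CPM (UMIs, log axis) in other excitatory neurons and in CA1 neurons, 5xFAD as circles and astrocyte MAGL-KO as squares, with exact 95% Poisson intervals. In other excitatory neurons all 12 genes shown have the lower value in the astrocyte MAGL-KO library, from Homer1 (715 and 334 CPM) to Fosb (2.72 and 1.08 CPM); in CA1 Fosl2 and Junb are level.

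The promoters of 3 of the genes called lower are shown with the core of the cyclic AMP response element in capitals, the site at which CREB is known to act in activity-regulated genes. The letters searched were TGACGT, or ACGTCA for the other strand, in the 250 bases before the start. They were present in 2125 of 32851 RefSeq promoters (6.47%), and in 8 of the 24 promoters (33.3%) of the 16 immediate early genes that had an entry. The stretches lie at chr13:93303507-93303756 (plus strand, Homer1), chr4:48045055-48045304 (plus strand, Nr4a3) and chr19:4989972-4990221 (minus strand, Npas4), from RefSeq, GRCm38.p6.
Homer1: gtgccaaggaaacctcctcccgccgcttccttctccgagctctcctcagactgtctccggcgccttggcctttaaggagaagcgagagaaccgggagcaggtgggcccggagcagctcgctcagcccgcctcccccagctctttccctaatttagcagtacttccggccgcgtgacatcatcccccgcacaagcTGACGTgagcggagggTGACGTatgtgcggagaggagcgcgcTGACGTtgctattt
Nr4a3: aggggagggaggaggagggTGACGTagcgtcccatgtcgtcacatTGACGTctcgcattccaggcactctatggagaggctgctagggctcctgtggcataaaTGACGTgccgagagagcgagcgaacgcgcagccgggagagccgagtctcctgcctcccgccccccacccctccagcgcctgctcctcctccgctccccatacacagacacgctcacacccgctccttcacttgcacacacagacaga
Npas4: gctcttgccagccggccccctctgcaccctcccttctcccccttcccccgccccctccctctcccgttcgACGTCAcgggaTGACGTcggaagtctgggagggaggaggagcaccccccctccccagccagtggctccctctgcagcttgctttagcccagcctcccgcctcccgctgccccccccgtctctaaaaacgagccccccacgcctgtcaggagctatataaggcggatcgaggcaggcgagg
Homer1 and Nr4a3 held 3 matches each and Npas4 held 2, and a match is a description of letters, not of binding. For Homer1 RefSeq lists 2 promoters, of which 1 is shown, and the region over it had no annotated gene start within 1000 bases. None of the regions over these stretches passed 1.5-fold in other excitatory neurons. The region over the Homer1 stretch (chr13:93303391-93304301) held 87.1 CPM of cut sites [82.3, 92] in 5xFAD and 80.5 CPM [76.2, 84.9] in the astrocyte MAGL-KO library, a ratio of -0.11 beside an RNA ratio of -1.09. Over Nr4a3 the values were 47.3 and 42.9 CPM (-0.14), and over Npas4 47.5 CPM [44, 51.2] and 39.7 CPM [36.8, 42.9] (-0.26), intervals that do not overlap. Of the 21 list members, all with a region at a gene start, 0 were past 1.5-fold higher and 1 was lower, Bdnf, at 9.68 and 5.95 CPM (140 and 100 cut sites). The median over the 21 was -0.12. In dentate granule neurons the same Bdnf region went the other way, with 95 and 200 cut sites (5.61 and 9.72 CPM, 0.78).

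In dentate granule neurons a second list of activity genes, which shares Bdnf and Nptx2 with the first, held more calls. Of 22 genes known to respond to strong activity or seizures in granule cells, 19 lay above 0 with a median of 0.55. With 100 UMIs, 11 of 21 were higher and 0 lower, against 3.09% and 0.285% of all genes. Like all lists here, this one was chosen with earlier results of these data known. Its counts are therefore a description and no test of the list. Penk, the enkephalin precursor, was at 6.35 CPM [5.29, 7.56] in 5xFAD and 24.4 CPM [22.3, 26.7] in the astrocyte MAGL-KO library (1.37). Acvr1c, an activin receptor, was at 45.7 [42.8, 48.8] and 106 CPM [101, 110] (1.13), and Bdnf, the neurotrophin, at 77.2 [73.4, 81.1] and 138 CPM [133, 143] (0.80). Npy, Nptx2, Ptgs2, Pappa, Inhba, Col27a1, Col6a1 and Spock1 were also higher, though Spock1 is listed as a gene lowered by activity. Calb1, whose loss from granule cells marks hyperexcitable hippocampus, was at 165 CPM [159, 170] and 131 CPM [126, 136] (-0.32), short of the call. Penk, Bdnf and Acvr1c were at 42.7, 133 and 114 CPM in the neuron knockout library and at 34.8, 122 and 104 CPM in the global knockout library, with wild type at 6.05, 97.7 and 53.8 CPM.

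Xist nuclei and Y nuclei differed here. Penk went from 7.57 to 35.7 CPM in Xist nuclei (1.69) and from 5.35 to 5.83 CPM in Y nuclei (0.07). Bdnf went from 73.4 to 181 CPM in Xist nuclei and from 81.7 to 67.9 CPM in Y nuclei, and the list median was 0.75 in Xist and 0.01 in Y nuclei. The difference between the splits was not tested. It went with 1 cluster, numbered 13 among the neuronal clusters (n13), that held 27 of the 1363 dentate granule nuclei of 5xFAD and 387 of the 1704 of the astrocyte MAGL-KO library. Of the latter, 371 were Xist nuclei and 8 were Y nuclei. Its size is no result, since the genes that define it, including Penk, Acvr1c, Pappa, Col27a1, Fbln2 and Lhfp, are among those that differ. For the same reason lower ratios of these genes without n13 follow from how the cluster was made and are given as values only. Without n13 the list median was 0.11, Penk was at 5.81 and 6.89 CPM (0.14) and Bdnf at 74.3 and 88.6 CPM (0.24). Inhba, an activin subunit, had 0.74 without n13, 0.90 in Xist nuclei and 0.57 in Y nuclei (26.8 and 42 CPM).

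The genes with the largest granule cell ratios outside the lists followed the same split. Lhfp (chr3:53041528-53261679), a tetraspan membrane protein gene, was at 7.05 CPM [5.93, 8.32] and 49.5 CPM [46.5, 52.7] (2.18). It went from 6.89 to 77.4 CPM in Xist nuclei and from 7.28 to 4.19 CPM in Y nuclei, and the ratio was 0.85 without n13. Fbln2, an extracellular matrix glycoprotein gene, was at 3.32 and 19.4 CPM (1.55), with 1.97 in Xist nuclei and -0.25 in Y nuclei. Grp, the gastrin-releasing peptide gene, was at 5.79 and 24 CPM (1.43). Lowest after the axonemal gene Cfap54 were Lgr6, Pdzrn4 and Gpc3. Pdzrn4 was at 219 CPM [213, 226] and 109 CPM [105, 114] (-0.97), with -1.52 in Xist nuclei and -0.28 in Y nuclei. Gpc3, a glypican of the X chromosome, was at 44.8 and 21.9 CPM (-0.89), again with -1.52 in Xist and -0.14 in Y nuclei. Lgr6 ran the other way: it was at 27.6 CPM [25.3, 30] and 7.56 CPM [6.4, 8.86] (-1.38), with 40.4 and 10.2 CPM in Y nuclei and 7.44 and 5.72 CPM in Xist nuclei. So the 5xFAD value of Lgr6 came mainly from its Y nuclei. Cfap54 differed in both, with -1.64 in Xist and -2.24 in Y nuclei.

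**Figure D4:**
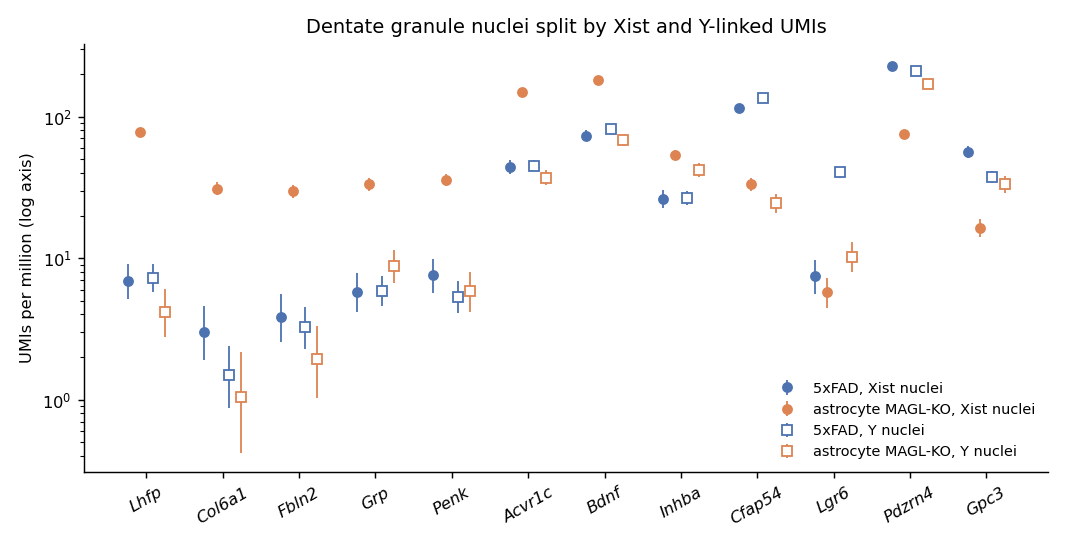
Level of 12 genes (x axis) in dentate granule nuclei in CPM (UMIs, log axis), split into Xist nuclei (circles) and Y nuclei (open squares) of 5xFAD (blue) and astrocyte MAGL-KO (orange), with exact 95% Poisson intervals. For Lhfp, Penk and Bdnf the Xist nuclei of the astrocyte MAGL-KO library stand apart (77.4, 35.7 and 181 CPM), while the Y nuclei of both libraries lie near each other; Cfap54 is lower in both splits.

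Cholesterol synthesis, which SREBP2 drives when membrane sterol is low, had a median above that of all genes in dentate granule neurons and below it in CA1 and CA3. The difference between these classes was not tested. In dentate granule neurons 18 of 18 genes lay above 0 with a median of 0.41, and the sum was 170 CPM in 5xFAD and 265 CPM in the astrocyte MAGL-KO library. Of 15 with 100 UMIs, 4 were higher, where 3.09% of all genes were, among them Hmgcs1, an early synthase of the pathway (5.04 [4.1, 6.13] and 11.4 CPM [9.93, 12.9]), and Fdft1, squalene synthase (12.3 and 21.3 CPM). The median was 0.60 in Xist nuclei, 0.11 in Y nuclei and 0.17 without n13. In CA1 the median was -0.02 and the sum 810 and 817 CPM, with 0.32 in Xist and -0.44 in Y nuclei, and 0 of 18 genes were called, where 4.39% of all genes were. In CA3 16 of 18 lay below 0 with a median of -0.27, the sum was 571 and 463 CPM, and 0 of 16 with 100 UMIs were called, where 6.16% of all genes were. The CA3 median was 0.25 after thinning to 1000 UMIs and -0.04 with classes by marker score. In CA1 Hmgcs1 stood at 71.8 CPM [67.3, 76.5] in 5xFAD and 66.2 CPM [61.5, 71.1] in the astrocyte MAGL-KO library, against 20 CPM in wild type. The sterol regulatory element was searched as TCACNCCAC on both strands and stood in 1.05% of all promoters and in 1 of 14 promoters (7.14%) of the 12 cholesterol genes with an entry. That one is shown with the match in capitals, at chr13:119690101-119690350 on the plus strand.
Hmgcs1: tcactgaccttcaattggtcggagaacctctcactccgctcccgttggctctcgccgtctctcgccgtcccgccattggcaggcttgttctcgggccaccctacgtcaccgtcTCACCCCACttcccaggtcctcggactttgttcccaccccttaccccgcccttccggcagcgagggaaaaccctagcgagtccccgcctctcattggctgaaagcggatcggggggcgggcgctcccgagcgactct
The region over it (chr13:119689807-119690706) held 66.5 CPM of cut sites [62.7, 70.5] and 72.3 CPM [68.7, 76.1] in dentate granule neurons (0.12). Over the starts of the cholesterol genes, 34 regions in dentate granule and CA3 neurons had a median of -0.01 and 0 were past 1.5-fold.

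The CA1 and CA3 genes named here had the same sign in Xist and Y nuclei, although the sizes differed. In CA1 Dcn, the matrix proteoglycan decorin, was at 14 CPM [12.1, 16.2] and 51.2 CPM [47.1, 55.6] (1.56), with 1.16 in Xist and 1.51 in Y nuclei, and wild type was at 30.2 CPM. Dcn is a leading gene of CA1 cluster n6, which held 151 of 570 CA1 nuclei in 5xFAD and 212 of 617 in the astrocyte MAGL-KO library. Within n6 it was at 44.3 CPM [38, 51.4] and 125 CPM [115, 136] (1.40), and in n5 at 0.664 and 2.77 CPM. Cped1 was at 3.92 and 15.5 CPM (1.20), with 1.33 in Xist and 0.71 in Y nuclei. Beside these, the 10 vascular or fibroblast markers summed to 5.6 and 19.3 CPM in CA1 nuclei, with 9 of 10 higher. Cped1 is itself 1 of these 10 markers, and its 3.92 and 15.5 CPM make up most of both sums. It is also a leading gene of a vascular cluster. The part of these markers in the result was not tested. Dach1, a transcriptional repressor, was at 145 CPM [139, 152] and 60.2 CPM [55.7, 64.8] (-1.20), with -1.25 and -1.28, and Tmtc2 at 114 and 51.7 CPM (-1.07). The dynein gene Dnah6 (chr6:73017606-73221651, minus strand) was at 30.1 and 1.77 CPM in CA1, while its promoter region held 29.6 and 29.1 CPM of cut sites. In CA3 Col23a1, a membrane collagen, was at 3.63 CPM [2.37, 5.32] and 30.8 CPM [26.8, 35.2] (2.05), Vgll3 at 1.12 and 18.5 CPM, L3mbtl4 at 0.699 and 15.5 CPM, and Nr2f2, the nuclear receptor COUP-TFII, at 4.47 and 23.5 CPM. Wild type was at 15.5, 24.2, 23.9 and 12.9 CPM for these 4 genes, above 5xFAD in each. The ratios in Xist and Y nuclei were 1.70 and 2.56 for Col23a1, 1.26 and 2.85 for Vgll3, 1.42 and 2.53 for L3mbtl4 and 1.51 and 1.77 for Nr2f2. Col11a1 was at 152 and 46.9 CPM (-1.60), with -2.59 and -1.05.

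CA3 is 2 clusters that the libraries filled unequally: n20 held 45 of 215 CA3 nuclei in 5xFAD and 97 of 265 in the astrocyte MAGL-KO library, and n17 held 170 and 168. Vgll3 is a leading gene of n20, and its ratio was 0.93 in n17 and 2.28 in n20. L3mbtl4 had 0.82 and 2.74 and Col23a1 1.22 and 1.94, beside 1.94 for Vgll3, 1.85 for L3mbtl4 and 2.05 for Col23a1 over all CA3 nuclei. All 3 had the smaller ratio in n17. Nr2f2 was at 1.48 in n17 and 1.70 in n20, and Col11a1 at -1.87 and -1.86. Ttn and Sema5b were lower in CA3 at -1.19 and -0.89 but not in n20, at 0.42 and 0.06. Markers of inhibitory and dentate granule neurons were also higher in CA3 nuclei: 10 inhibitory markers summed to 80.2 and 135 CPM, all 10 higher, and 9 dentate granule markers to 611 and 862 CPM, all 9 higher, while the 7 CA3 markers summed to 2549 and 2391 CPM with 1 higher. In n20, 11 of 45 nuclei in 5xFAD and 20 of 97 in the astrocyte MAGL-KO library held both Xist and Y-linked UMIs and may be doublets. In n17, 8 of 170 and 5 of 168 did. Over all libraries of the series 11.3% of n20 and 0% of n17 were called likely doublets and removed. The part of these nuclei and markers in the CA3 values was not tested.

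The highest ratios in inhibitory neurons included those of Tac2, Ndn and Nxph2, the lowest those of Rarb and Prkcd. Tac2, the neurokinin B precursor, was at 10.1 CPM [8.44, 11.9] and 32.5 CPM [29.1, 36.2] (1.32), Ndn, the imprinted gene necdin, at 6.19 and 29.6 CPM (1.63), and Nxph2, a neurexophilin, at 9.17 and 31.1 CPM (1.35). All 3 were higher in Xist and in Y nuclei. Rarb, a retinoic acid receptor, was at 91.4 and 35.9 CPM (-1.24), with 28.1 CPM in wild type and 173 CPM in the global knockout. Prkcd, protein kinase C delta, was at 16.8 CPM [14.7, 19.2] and 5.19 CPM [3.89, 6.79] (-1.10). Prkcd went from 29.4 to 1.71 CPM in Y nuclei and from 0.795 to 8.07 CPM in Xist nuclei. Beside this, Rarb is a leading gene of inhibitory cluster n31, which held 33.6% of inhibitory nuclei in 5xFAD and 22.1% in the astrocyte MAGL-KO library. Cluster n31 held 97 Y nuclei and 21 Xist nuclei in 5xFAD and 26 and 65 in the astrocyte MAGL-KO library. Prkcd is a leading gene of n43, an unnamed cluster outside the inhibitory class. Cluster n43 held 38 nuclei in 5xFAD and 2 in the astrocyte MAGL-KO library. The part of either cluster in these values was not tested.

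Some genes crossed all neuron types. Of 8696 genes with 100 UMIs in dentate granule, CA1, CA3 and inhibitory neurons, 83 (0.954%) were higher in all 4 classes and 3 (0.0345%) lower in all 4. The lower ones were Cfap54, the gene model Gm17167 and Ddx3y, a gene of the Y chromosome, which goes with the smaller number of Y nuclei in the astrocyte MAGL-KO library. The 83 likewise hold Xist (mean ratio 0.80) and Tsix (0.93), which go with its larger number of Xist nuclei. Zfp46, a zinc finger gene, was at 13.5 and 40 CPM in dentate granule, 7.91 and 25.4 CPM in CA1, 7.13 and 26.7 CPM in CA3 and 6.33 and 16.8 CPM in inhibitory neurons. Its mean ratio over the 4 classes was 1.21, below AC149090.1, a gene model (1.44, with 260 and 712 CPM in CA1), and above Col6a1 (1.17), Ndn (1.04) and the ubiquitin gene Ubb (1.01). The other classes come from the same 2 libraries, so their values are a description and no independent check. In other excitatory neurons 72 of the 83 were past 1.5-fold, where 3% of all genes were, with a median of 0.77. In oligodendrocytes 22 of them had 100 UMIs, and 13 of these were past 1.5-fold, where 3.4% of all genes were. Of those with 100 UMIs, 5 of 8 were past 1.5-fold in microglia, 4 of 7 in oligodendrocyte precursors and 1 of 4 in astrocytes. Of all genes there, 4.22%, 3.01% and 3.37% were higher.

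The lowest ratio of any named gene was in oligodendrocytes. Npsr1 (chr9:24097996-24316398, plus strand), the receptor of neuropeptide S, had 365 UMIs in 306 oligodendrocyte nuclei of 5xFAD, or 354 CPM [319, 392], and 0 UMIs in 308 nuclei of the astrocyte MAGL-KO library. A count of 0 was taken to allow up to 3 UMIs, or 3.92 CPM, which lies 90.2-fold below the 5xFAD value. That fold leaves out the counting error of the 5xFAD value and is not a lower bound. Wild type had 503 UMIs (566 CPM), and the neuron and global knockout libraries had 0 each. The 2 other named classes with over 100 UMIs kept the gene: other excitatory neurons had 1211 and 1281 UMIs (51.4 and 47.8 CPM) and inhibitory neurons 138 and 83 (10.3 and 8.13 CPM). Of the regions within the gene 2 held over 10 cut sites in oligodendrocytes. An intronic region at chr9:24160206-24161142 held 131 and 81 cut sites in oligodendrocytes (68.7 and 53 CPM, -0.37), and another at chr9:24119166-24120113 held 26 and 35. The others held fewer than 10 in either library, some of them less in the astrocyte MAGL-KO library, with 9 and 1 at chr9:24144060-24145004 and 8 and 1 at chr9:24189462-24190383. No region lay at the gene's annotated start.

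Other oligodendrocyte genes differed less sharply, among 3.4% of 3085 genes called higher and 3.66% called lower. Sgk1, a stress-responsive kinase, was at 43.6 CPM [31.8, 58.4] and 157 CPM [130, 188] (1.74), with 2.18 in Xist and 1.89 in Y nuclei, and at 21.5 CPM in the neuron and 137 CPM in the global knockout. Galnt5, which starts mucin-type glycosylation, was at 33 and 96.8 CPM, the small GTPase gene Rhoj at 45.6 and 127 CPM, and Lrrtm3, a synaptic adhesion gene, at 97 and 239 CPM. Pik3r3, a regulatory subunit of PI3 kinase, was at 614 CPM [567, 664] and 212 CPM [181, 247] (-1.51), with wild type at 336 CPM. Pbx3 was at 280 and 101 CPM (-1.43), with -2.62 in Xist and 0.26 in Y nuclei, and P4ha1, a collagen prolyl hydroxylase, at 145 and 53.6 CPM (-1.35). Of the 8 genes Pbx3 alone changed sign in a split by sex.

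**Figure D5:**
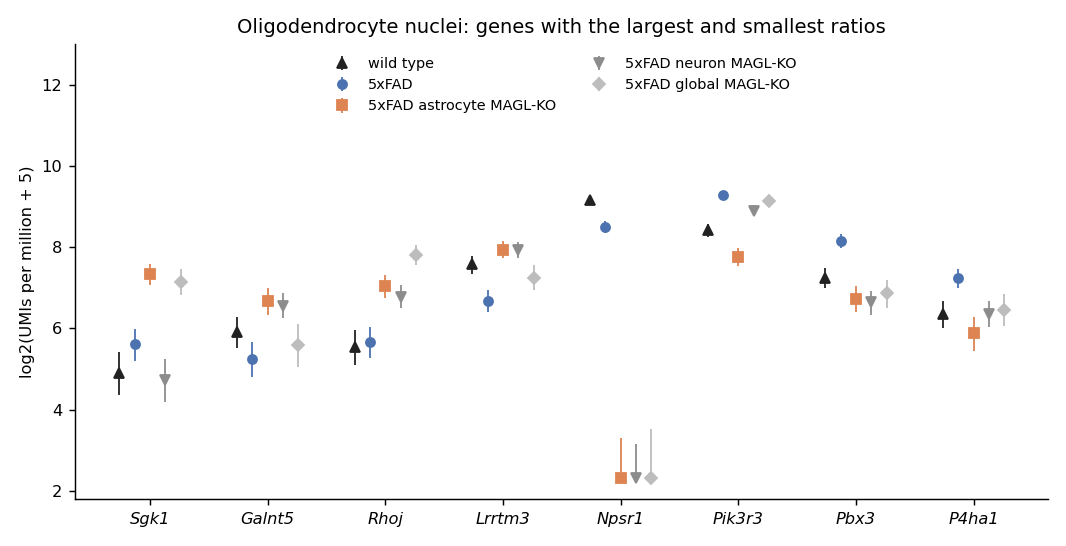
Level of the 8 genes with the 4 highest and 4 lowest ratios in oligodendrocyte nuclei (x axis) as log2 of CPM plus 5 (y axis) in the 5 libraries, with exact 95% Poisson intervals. Npsr1 is present in wild type and 5xFAD (566 and 354 CPM) and at 0 UMIs in the 3 libraries labelled MAGL-KO, whereas Sgk1 is high in the astrocyte and global knockout libraries (157 and 137 CPM).

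Myelin genes leaned upward in the same nuclei. Of 19, 16 lay above 0 with a median of 0.27 against -0.03 for all genes, and 2 of 17 with 100 UMIs were higher, where 3.4% of all genes were: Mobp (1219 and 1839 CPM) and Mal (703 and 1130 CPM). Mbp, myelin basic protein, was at 4864 CPM [4730, 5001] and 5894 CPM [5723, 6068] (0.28). Ugt8a, which makes galactolipids of myelin, ran the other way at 1377 and 1147 CPM, as did the transcription factor gene St18 at 5563 and 4837 CPM. Among genes raised in oligodendrocytes near amyloid, 10 of 11 lay above 0 with a median of 0.40, and 2 of 6 with 100 UMIs were called, both higher, Sgk1 among them. C4b, a complement component that stood at 4.5 CPM in wild type, was at 135 and 179 CPM, with 0.61 in Xist and -0.51 in Y nuclei. Beside these, 10.9% of oligodendrocyte genes of 200 kb or more were called lower.

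Astrocyte nuclei were too few for more than the abundant genes. Of 683 genes with 100 UMIs, 23 were higher (3.37%) and 60 lower (8.78%). The transporters of glutamate were level, with Slc1a2 at 7739 CPM [7384, 8107] and 7821 CPM [7431, 8225] and Slc1a3 at 2273 and 2584 CPM, and glutamine synthetase (Glul) was at 539 and 533 CPM. The level value of Glul joined 277 and 552 CPM in Xist nuclei with 740 and 460 CPM in Y nuclei, from 17 and 20 Xist and 21 and 22 Y nuclei. Of 12 uptake and coupling genes with 100 UMIs, 1 was lower: Aqp4, the water channel of astrocyte endfeet, at 374 CPM [299, 462] and 238 CPM [174, 318] (-0.64). That is near the 8.78% of all genes called lower, and the Aqp4 ratio was 1.38 after thinning to 1000 UMIs. Lgr4, a receptor that strengthens Wnt signals, was at 556 CPM [464, 661] and 212 CPM [152, 288] (-1.37), and Nnat, neuronatin, at 830 and 337 CPM (-1.29), each with a negative ratio in Xist and in Y nuclei. Slco1c1, a thyroid hormone transporter, was at 1004 and 425 CPM (-1.23), with -0.12 in Xist and -1.58 in Y nuclei. On the high side were the kinase gene Mapk4 (322 and 642 CPM), Nt5c2 (226 and 430 CPM), Pik3c2a (187 and 352 CPM) and Wwox (309 and 590 CPM), where the Wwox ratio was -0.32 for Xist nuclei and 1.27 for Y nuclei. When astrocytes were chosen by a marker score instead of clusters, Mapk4, Nt5c2, Pik3c2a and Nnat changed sign. Genes listed as markers of neuron classes were also read in astrocyte nuclei. The 9 dentate granule markers summed to 3320 CPM in 5xFAD and 2937 CPM in the astrocyte MAGL-KO library, and the 10 other excitatory markers to 2807 and 1683 CPM. In oligodendrocytes the same 9 markers summed to 4004 and 3811 CPM, so this list does not by itself show neuronal RNA. The 7 excitatory neuron markers summed to 52.1 and 41.4 CPM in astrocyte nuclei and the 10 inhibitory markers to 26.1 and 114 CPM. Their part in these values was not tested.

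Microglia, 81 and 121 nuclei, had 43 of 1018 genes higher (4.22%) and 49 lower (4.81%). Of the 16 homeostatic genes, Gpr34, a lysophospholipid receptor, was at 469 and 806 CPM and Olfml3 at 189 and 296 CPM, both called higher. Med12l was at 213 CPM [155, 285] and 446 CPM [368, 536] (1.05), Tab2, a TAK1 adaptor, at 421 and 201 CPM (-1.05) and Arsb, a lysosomal sulfatase, at 1004 and 498 CPM, each in the same direction in Xist and Y nuclei. Complement genes lay above 0 in 7 of 7 measured, with a median of 0.45 and 0 of 5 called. Of these, C1qb was at 1382 [1228, 1550] and 1899 CPM [1733, 2077] and C1qa was level at 1950 and 1963 CPM, and the median was 0.84 in Xist and -0.25 in Y nuclei. Of 25 disease-associated microglia genes 12 lay above 0, with a median of -0.02 that was 0.36 in Xist nuclei, -0.50 in Y nuclei and 0.53 with classes by marker score. Of 15 with 100 UMIs, Lpl, a lipase (147 and 316 CPM), and Ctsl, a lysosomal protease (379 and 577 CPM), were higher and Apoe, the lipid carrier (7224 and 3230 CPM, -1.16), was lower. Markers of other glia were also lower in these nuclei: 11 astrocyte markers summed to 341 and 174 CPM, with 7 and 9 at 0, and 12 oligodendrocyte markers to 431 and 142 CPM, with 2 and 6 at 0. Their part in the result was not tested. By cluster, Lpl was at 203 and 501 CPM in g16 and at 15.8 and 0 CPM in g10; g16 held 53 and 76 microglia of the 2 libraries and g10 held 28 and 45. The Apoe level went from 4820 to 4401 CPM in Xist nuclei and from 8354 to 1346 CPM in Y nuclei, with 30 and 31 Y nuclei. Its ratio was 0.49 in cluster g10 and -1.16 in g16 (9967 and 4450 CPM). Apoe is a leading gene of g16, so its ratios within the clusters depend on how the clusters were made.

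Open chromatin was compared over 185849 regions merged from the peak lists of both libraries. Of these 141415 (76.1%) were listed in both, 28567 in 5xFAD alone and 15867 in the astrocyte MAGL-KO library alone. The 5xFAD peaks covered 146 Mb with 0.526 cut sites per base and the astrocyte MAGL-KO peaks 136 Mb with 0.615, and the shared regions held 94.6% and 96.8% of the cut sites. Regions listed once held few cut sites, a median of 122 in 5xFAD and 145 in the astrocyte MAGL-KO library, and no ratio is given for them. Of 137963 shared regions with at least 200 cut sites, 5157 (3.74%) were higher and 790 (0.573%) lower past 1.5-fold after adding 0.1 CPM. Of 19191 regions within 1000 bases of a gene start 257 were higher (1.34%) and 68 lower (0.354%). Of the other regions 4.13% were higher and 0.608% lower. Regions near a gene start hold more cut sites, a median of 2170 over both libraries against 542 in other regions. Their median ratio was -0.01, against 0.08 in other regions. The part of depth in the smaller share of calls was not tested.

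The region with the highest ratio was chr17:6454580-6455491, in introns of the gene models Gm26848 and Tmem181b-ps. It had 60 cut sites in 5xFAD (0.779 CPM [0.594, 1]) and 389 in the astrocyte MAGL-KO library (4.66 CPM [4.21, 5.15]), a ratio of 2.44. It was read in neurons, with 2 and 59 cut sites in CA1, 4 and 54 in inhibitory neurons and 22 and 121 in other excitatory neurons. The next was the intergenic region chr4:89875518-89876851, at 0.493 and 2.61 CPM (2.19), whose peaks covered 712 bases in 5xFAD and 810 in the astrocyte MAGL-KO library and largely lie apart, so the ratio compares different sequence. Neither region was listed in wild type. On the low side, chr12:17992366-17993271 in an exon of the gene model Gm49330 held 894 and 211 cut sites (11.6 CPM [10.9, 12.4] and 2.53 CPM [2.2, 2.89], -2.16), and the intergenic chr4:134453644-134454552 held 798 and 240 (-1.81). These 4 regions had the same sign in Xist and in Y nuclei. The lowest of all, in an exon of Ppp1r9b at chr11:95004453-95005208, covered 756 bases in 5xFAD and 115 in the astrocyte MAGL-KO library, so its -2.38 compares unequal lengths.

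Accessibility at gene starts was read for the leading genes, which were chosen for their RNA ratios, so a smaller ratio at the start is no finding. Of these, 36 pairs of gene and class had a start region listed in both libraries with at least 50 cut sites; 4 were past 1.5-fold higher (Fbln2 and Lgr6 in dentate granule, Cped1 in CA1 and Col23a1 in CA3) and 3 lower (Gpc3 in dentate granule, Prkcd in inhibitory neurons and Arsb in microglia), with a median of -0.01. In 24 of the 36 the start region had the same sign as the RNA. Among all start regions with 200 cut sites over all nuclei 1.34% were higher and 0.354% lower, but these 36 rest on single classes and as few as 50 cut sites, so the shares are not on one footing. Cfap54 had 15.5 CPM of cut sites in both libraries in dentate granule neurons. Lhfp, with the highest RNA ratio there, had 8.33 and 7.58 CPM (-0.13), and Pik3r3 in oligodendrocytes 138 and 112 CPM (-0.31). Fbln2 had 3.9 and 6.03 CPM (0.62) beside 1.55, and Gpc3 10.3 and 6.56 CPM (-0.64) beside -0.89. Lgr6 ran in opposite directions, with 2.36 and 3.6 CPM of cut sites (40 and 74) and an RNA ratio of -1.38.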

How the data were processed

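Nuclei of mouse hippocampus were released by Dounce lysis, purified over iodixanol and read with the 10x Multiome assay, per the labels' protocols. The authors deposited raw counts of UMIs per gene and of transposase cut sites per peak for each nucleus, made with Cell Ranger ARC 2.0.0 on mm10, per the submitters' processing notes, with peaks listed separately for each library. Nuclei were used if they had 500 or more genes and a mitochondrial share of up to 5%, and those with the highest Scrublet scores (0.8% per 1000 nuclei) were removed as likely doublets, 214 in 5xFAD and 303 in the astrocyte MAGL-KO library. Nuclei of all 5 libraries were clustered with scanpy 1.11.5 and leidenalg 0.10.2, and clusters were named from marker lists; every class name means "like" that cell type. Counts were summed per library and class and scaled to CPM of the class total. A call needed 1.5-fold after adding 5 CPM and 100 UMIs, or for regions 0.1 CPM, 200 cut sites and a listing in both libraries. With 1 library per group no test was made, and intervals cover counting error only.

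Genes were named by rule: in each class the 4 highest and 4 lowest ratios among genes with 100 UMIs and at least 0.5 of their level over all nuclei, leaving out mitochondrial, Xist, Tsix, Y-linked and numbered gene models; genes past 1.5-fold the same way in 4 neuron classes; members of 25 lists (585 genes); Mgll; and the 4 highest and 4 lowest regions. The members and lists were chosen with earlier results of these data known. Gene coordinates are GENCODE vM21 (GRCm38). The log2 ratio of gene counts, its counting interval and the 1.5-fold call were tested on simulated counts. Alternatives were other scaling, pseudocounts and filters, thinning to 1000 UMIs, classes by marker score, and splits by sex or cluster. Python 3.11.15, numpy 2.4.6, scipy 1.17.1 and pandas 2.3.3 were used. Values of some list members are not reported here, though they count in the list totals.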

Additional observations from a re-analysis of the deposited data

Results flagged for a closer look

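Prkcd in inhibitory neurons went in opposite directions inside the libraries: the log2 ratio of astrocyte MAGL-KO over 5xFAD was 1.17 in Xist nuclei (2 and 30 UMIs) and -2.36 in Y nuclei. The difference between these splits was not tested, and sex and animal cannot be told apart.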

How the results depend on the processing

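No paired analysis was possible because a single library stood on either side and nothing in the labels links it to a particular library of the other group. Ratios are log2 of astrocyte MAGL-KO over 5xFAD, and causes of the changes were not tested. Of 1400 alternative values of single genes 853 stayed close, 521 moved and 26 reversed, a change of sign in a gene whose main ratio was past 1.5-fold. Of 1046 alternative list medians 946 stayed close, 87 moved and 13 reversed, here a change of sign with neither median near 0. Other changes of sign are counted among the values that stayed close or moved. Mgll was 0.28 instead of 0.44 in dentate granule neurons with size factors, 1.34 instead of 0.33 in astrocytes after thinning, and -0.18 instead of 0.77 in oligodendrocytes within Y nuclei.

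Within Y nuclei the dentate granule ratios were -0.42 for Lhfp, -0.10 for Col6a1 and Fdft1, -0.25 for Fbln2, Bdnf and Acvr1c, -0.24 for Pappa and -0.06 for Nptx2, and that of Pbx3 in oligodendrocytes was 0.26. Within Xist nuclei Prkcd was 1.17 and Wwox -0.32. Pappa was -0.15 without cluster n13 and -0.20 in Xist nuclei without it. In CA3 cluster n20 Ttn was 0.42, Sema5b 0.06 and Nr4a2 0.26. With classes by marker score Mapk4 was -0.29, Nt5c2 -0.09, Pik3c2a -0.25 and Nnat 0.05. In microglia cluster g10 Lpl was -2.06, on values near the floor, and Apoe 0.49. After thinning Cyc1 was -0.37, Atp5j -0.95, inhibitory Nr4a3 0.18 and astrocyte Aqp4 1.38.

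List medians within Y nuclei were -0.18 for 2-AG genes in microglia (also -0.16 in g10), -0.50 for disease-associated genes, -0.25 for complement, -0.32 for the ribosome in microglia, -0.14 for glycolysis in astrocytes, 0.11 for cholesterol and 0.01 for granule activity genes in dentate granule neurons. Within Xist nuclei they were 0.36 for disease-associated genes, 0.13 for chaperones in microglia and 0.15 for immediate early genes in inhibitory neurons. With marker scores they were 0.53 for disease-associated and 0.68 for homeostatic microglia genes, -0.40 for astrocyte uptake, 0.12 for cholesterol in astrocytes and -0.04 in CA3. After thinning they were 0.26 for eicosanoid and -0.23 for interferon genes in oligodendrocytes, -0.18 for glycolysis in astrocytes, 0.25 for cholesterol and 0.19 for immediate early genes in CA3, and 0.77 for granule activity. A pseudocount of 1 gave 0.62 for cholesterol and 0.80 for granule activity in dentate granule neurons and -0.67 for immediate early genes in other excitatory neurons. Without n13 cholesterol was 0.17 and granule activity 0.11, or 0.18 in Xist nuclei, and in n20 cholesterol was -0.49.

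Counts of genes past 1.5-fold followed the pseudocount, the depth and the nuclei entered. With a pseudocount of 1 they were 1210 instead of 403 in dentate granule, 1130 instead of 467 in CA1, 1045 instead of 556 in CA3 and 1287 instead of 570 in inhibitory neurons. After thinning they were 233, 76, 53 and 90, with 12 in astrocytes, 22 in microglia and 89 in oligodendrocytes. Dentate granule had 716 in Xist nuclei, CA1 288 with size factors and CA3 359 in n20. Astrocytes, with 83, had 28 in Xist and 28 in Y nuclei, 479 with marker scores and 1077 at a minimum of 20 UMIs. Microglia, with 92, had 47, 24, 573 and 1058, with 18 in g10 and 53 in g16. Oligodendrocytes, with 218, had 144 in Xist and 123 in Y nuclei and 1293 at 20 UMIs. The dentate granule share was 27.7% without doublet removal and 22.8% by marker score, and the astrocyte share 2.41% by marker score. Regions listed in both were 77.7% at 100 cut sites. Higher regions numbered 1442 at 500 cut sites and 2313 in Y nuclei, and lower regions 269 at 500 cut sites, 1687 in Xist nuclei and 473 where covered lengths were within 1.1-fold. Read within clusters, immediate early medians ran from -0.76 to 0.28 in other excitatory neurons and from -0.25 to -0.08 in CA1.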

Other observations

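Genes of the motile cilium, which encode axonemal dyneins and their partners, held some of the lowest ratios in neurons without a shift of the whole list. In other excitatory neurons 23 of 32 lay above 0, with a median of 0.11 against 0.14 for all genes. Of 23 with 100 UMIs, 3 were lower and 1 higher, where 0.397% and 3% of all genes were. Cfap54 was at 127 CPM in 5xFAD and 50.5 CPM in the astrocyte MAGL-KO library, Dnah6 at 11.1 and 3.06 CPM and Cfap46 at 12.4 and 5.9 CPM, whereas Spag16 was at 4.97 and 11.8 CPM. Chaperone genes had medians of 0.08 to 0.11 in neurons. Of 18 or 19 with 100 UMIs, 1 or 2 were higher in each neuronal class, where 3% to 5.71% of all genes were. The chaperone gene Hspa8 was higher in all 5, with ratios of 0.63 to 0.85. In CA3 and in inhibitory neurons 1 was lower, where 0.454% and 0.723% of all genes were. In oligodendrocytes 2 of 10 were lower, Hspa4l (81.5 and 43.2 CPM) and Dnaja1 (90.2 and 54.9 CPM), where 3.66% of all genes were.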
